A study of Mus musculus with 3 samples.

Results

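Transforming growth factor beta (TGF-beta) signalling was followed through 10 genes in cardiac myofibroblasts, the fibroblasts that acquire contractile fibres and lay down scar after a heart attack. The genes encode the ligands (Tgfb1, Tgfb2 and Tgfb3), the receptors (Tgfbr1, Tgfbr2 and Tgfbr3), a pair of latent TGF-beta binding proteins (Ltbp1 and Ltbp2), a signal transducer (Smad3) and an inhibitor (Smad7). They were chosen by name, through array probes whose RefSeq transcript belongs to these genes, and make up 10 of the 20658 genes with a named probe. All 10 were among the 15393 genes tested, which means that at least 1 of the 3 arrays had a probe of the gene well above background. The members were measured by 14 probes in 32 spots on each array, and every member was well above background on all 3 arrays.

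The cells came from C57BL/6J males whose left anterior descending coronary artery had been tied for good 3 days before the heart was taken. The labels give an age of 8 weeks in their age field and of 10 weeks at the operation, and name no altered allele. In all groups the digested heart cells were first kept overnight on plastic and then depleted of cells that carry CD45, a leukocyte surface protein. The adherent (Ad) cells were grown on plastic plates, the non-adherent (Non) cells were moved from plates to suspension, and the re-adherent (Re) cells were put back on plates after suspension. By comparing these states the study asked which genes depend on the mechanical support of the cell. Each group was 1 array of RNA mixed from several hearts or plates, so no spread between biological replicates exists and no p-value is given. The states followed each other in time, so that time in culture and state cannot be told apart. RNA was taken from whole cultures, in which fewer cells of a type and less RNA per cell cannot be told apart. The study reports that cell number fell during suspension and attributes this to death of detached cells. The Non and Re cells were thus those left after that loss.

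TGF-beta is secreted as a latent complex, in which the mature ligand stays held by its own propeptide and the propeptide is tied to a latent TGF-beta binding protein anchored in the matrix. Integrins that pull on the complex, proteases and thrombospondin can free the ligand, which binds the type II receptor and through it the type I receptor kinase. The kinase phosphorylates Smad2 and Smad3, which enter the nucleus with Smad4 and turn on matrix and contractile genes, whereas Smad7 is induced by the pathway and shuts the receptor off. In the infarcted heart this pathway is known for driving fibroblasts to become myofibroblasts.

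Promoter windows, the 250 bases before a RefSeq start in the mouse assembly GRCm38.p6, were used for 7 of the 10 members. The windows of Tgfb1, Tgfb2, Ltbp1 and Ltbp2 are printed 5′ to 3′ on the coding strand, since these 4 genes carry the contrasts described below. Tgfb1 was higher in suspension, Tgfb2 was lower there and came back, Ltbp1 had the largest difference among the members, and Ltbp2 stayed low after re-adhesion. Capitals mark CAGAC (the core bound by Smad proteins), GGGCGG (the GC box) and TGACGTCA (the cyclic AMP response element), each on either strand, and TATAAA (the TATA box) on the coding strand.
Tgfb1 chr7:25686752-25687001: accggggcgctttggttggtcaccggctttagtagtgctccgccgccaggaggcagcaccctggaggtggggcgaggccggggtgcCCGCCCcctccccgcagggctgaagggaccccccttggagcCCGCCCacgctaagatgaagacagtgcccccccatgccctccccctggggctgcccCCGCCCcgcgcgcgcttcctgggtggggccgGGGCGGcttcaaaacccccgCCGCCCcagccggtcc
Tgfb2 chr1:186705990-186706239: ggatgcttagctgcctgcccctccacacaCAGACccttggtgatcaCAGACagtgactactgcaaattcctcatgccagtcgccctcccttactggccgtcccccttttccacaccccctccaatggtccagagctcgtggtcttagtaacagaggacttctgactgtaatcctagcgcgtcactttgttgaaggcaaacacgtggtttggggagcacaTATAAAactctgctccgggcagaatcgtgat
Ltbp1 chr17:75005279-75005528: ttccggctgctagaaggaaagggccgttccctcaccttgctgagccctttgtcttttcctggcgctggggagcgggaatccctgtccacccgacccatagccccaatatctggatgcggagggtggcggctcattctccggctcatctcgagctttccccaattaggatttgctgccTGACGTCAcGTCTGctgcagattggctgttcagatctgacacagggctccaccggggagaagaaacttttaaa
Ltbp2 chr12:84876492-84876741: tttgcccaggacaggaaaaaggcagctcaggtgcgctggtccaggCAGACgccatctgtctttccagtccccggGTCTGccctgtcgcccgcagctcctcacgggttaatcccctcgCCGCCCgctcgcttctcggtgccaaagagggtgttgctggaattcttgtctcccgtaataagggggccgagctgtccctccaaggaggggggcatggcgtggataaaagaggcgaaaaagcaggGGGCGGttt
The Tgfb1 and Ltbp1 windows lie on the plus strand, and those of Tgfb2 and Ltbp2 on the minus strand. No marked matches overlap. The Tgfb1 window was 75.2% G and C, against a median of 52.4% over all 32851 windows, and held 5 GC boxes but no CAGAC. In Tgfb2, with 53.6% G and C, there were 2 matches to CAGAC and a TATA box beginning 31 bases before this start. The Tgfb2 window lies inside the annotated span of the gene, so it belongs to a start other than the outermost. The printed windows of Ltbp1 and Ltbp2 overlap the edge of their annotated gene. The Ltbp1 window printed held 1 CAGAC next to the cyclic AMP response element, and a second Ltbp1 start has a window, chr17:75178531-75178780, with 2 CAGAC and 0 TGACGTCA. The Ltbp2 window held 2 CAGAC and 2 GC boxes. CAGAC was present in 42.2% of all windows of this length, the GC box in 32.7%, the TATA box in 7.59% and TGACGTCA in 1.55%. Searches on both strands for CATTCC (bound by TEAD factors), TGANTCA (AP-1) and the CArG box (bound by SRF) gave no match in 9 windows of 7 members. These motifs were present in 12.6%, 6.75% and 1.47% of all windows. Tgfb3, Tgfbr3 and Smad7 were not searched, and 9 windows are too few to show that the members lack these motifs. These matches are letters in a window and were not measured as bound sites.

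Values are given as processed signal in the scanner's intensity units, and differences as log2 after each array was reduced by its 75th percentile. That percentile was 651 units for Ad, 697 for Non and 541 for Re, and between 53.9% and 59.9% of the spots were well above background. The error after each difference joins the errors that the scanner software gave the 2 spots compared. Its median over genes was 0.20 for every pair, and it covers technical error only and says nothing of how far separate cultures would spread. Where a gene had several probes, their SD was 0.17 at the median for Non against Ad, 0.18 for Re against Non and 0.11 for Re against Ad. A gene was called when it differed over 2-fold, that is by more than 1 on the log2 scale. The non-adherent array enters both steps, so the differences of the 2 steps are not independent of each other.

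In suspension 8 of the 10 genes passed 2-fold, in opposite directions. Tgfb1, Tgfbr1 and Tgfbr2 were higher, and Tgfb2, Tgfb3, Ltbp1, Ltbp2 and Smad7 were lower, whereas Tgfbr3 and Smad3 stayed within 2-fold. Among all tested genes 17.2% were over 2-fold higher and 14.7% over 2-fold lower in this pair of arrays, the background for 3 higher and 5 lower of 10. On re-adhesion Tgfb2, Ltbp1 and Smad7 were over 2-fold higher than in suspension, beside 15.6% of all genes, and Tgfb1 and Tgfbr2 were over 2-fold lower, beside 16.3%. Over both steps 3 members were lower in suspension and higher again on re-adhesion (Tgfb2, Ltbp1 and Smad7), beside 11.2% of all genes. The reverse held for 2 members (Tgfb1 and Tgfbr2), beside 13.1%. Against the first adherent cells the re-adherent cells had 3 members over 2-fold lower (Tgfb3, Tgfbr3 and Ltbp2), beside 4.89% of all genes, and 0 members over 2-fold higher, beside 4.84%.

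**Figure D1:**
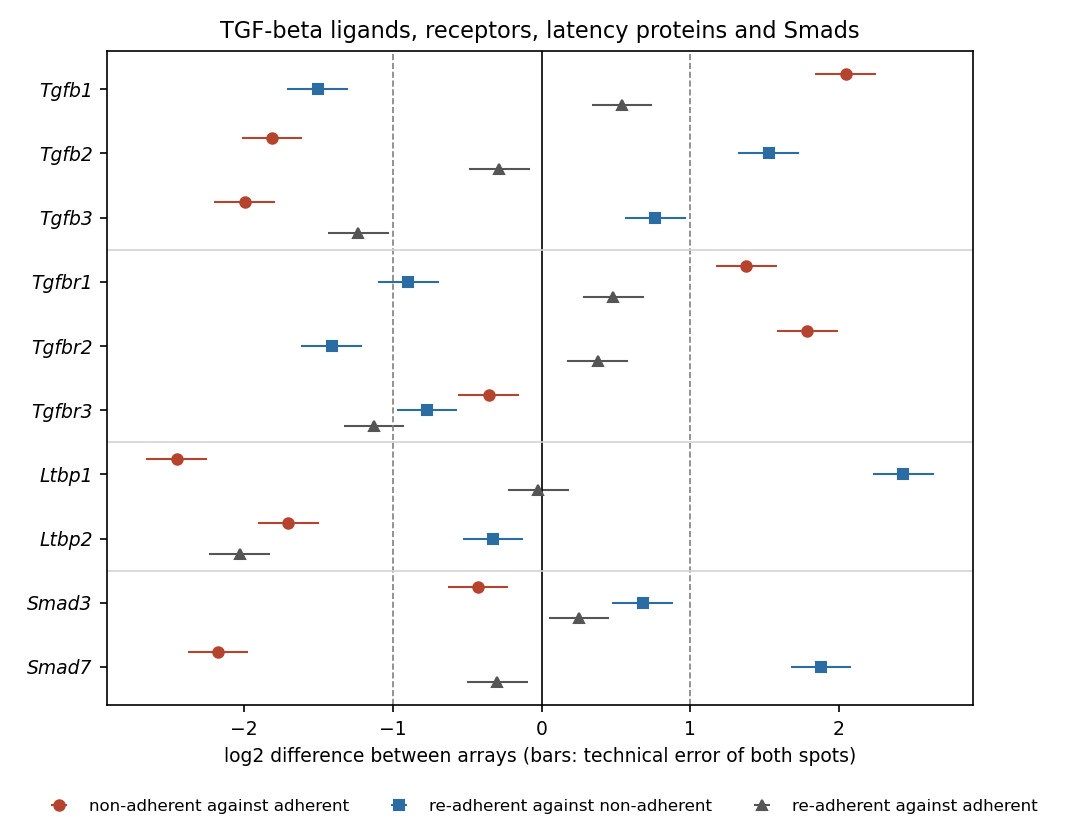
Log2 difference of each member (rows) in the 3 pairs of arrays, from the brightest probe. Circles are non-adherent against adherent, squares re-adherent against non-adherent and triangles re-adherent against adherent, bars are the technical error of both spots, and dashed lines mark 2-fold. Tgfb1, Tgfbr1 and Tgfbr2 lie to the right in suspension and to the left on re-adhesion, whereas Tgfb2, Ltbp1 and Smad7 do the reverse, and Ltbp2 lies left of the 2-fold line in re-adherent against adherent cells.

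The ligands separated. Tgfb1, the isoform best known from scar formation, gave 1187 units in Ad, 5246 in Non and 1435 in Re. It was therefore 4.13-fold higher in suspension (log2 2.05 ± 0.20) and 2.84-fold lower again after re-adhesion (-1.51 ± 0.20), which left it 0.54 ± 0.20 above the first adherent cells on the log2 scale. With spike-in scaling that last difference was 0.11, so its size depends on how the arrays are scaled. Of the tested genes 7.33% had a higher difference in suspension. The Tgfb1 probe was printed 10 times on each array, and its spots ran from 1069 to 1253 units in Ad, from 4609 to 5588 in Non and from 1280 to 1507 in Re. Spots of different arrays did not overlap.

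Tgfb2, the isoform that depends on betaglycan for strong binding to the type II receptor, moved the other way. It read 5155 units in Ad, 1570 in Non and 3519 in Re. The loss in suspension was 3.51-fold (-1.81 ± 0.20), and re-adhesion brought it 2.88-fold higher (1.53 ± 0.20), to -0.28 ± 0.20 of the first adherent level. A second probe for Tgfb2 read 2033, 609 and 1220 units and gave -1.84, 1.37 and -0.47 in the same order, so both probes carried the same directions.

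Tgfb3, an isoform known from wound repair and palate closure, was lower in suspension and came back in part. Its probe gave 24589 units in Ad, 6592 in Non and 8702 in Re. This was 3.99-fold lower in suspension (-2.00 ± 0.20), just short of 4-fold, and a difference of 0.76 ± 0.20 on re-adhesion, within 2-fold. Re-adherent cells were still 2.35-fold below the first adherent cells (-1.23 ± 0.20), and 3.32% of all genes were lower than that. Over 9 printed copies of the probe, after 1 copy was left out as an outlier among its repeats, the spots lay between 22430 and 25716, 6278 and 6777, and 8169 and 9034 units, again with no overlap between arrays.

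**Figure D2:**
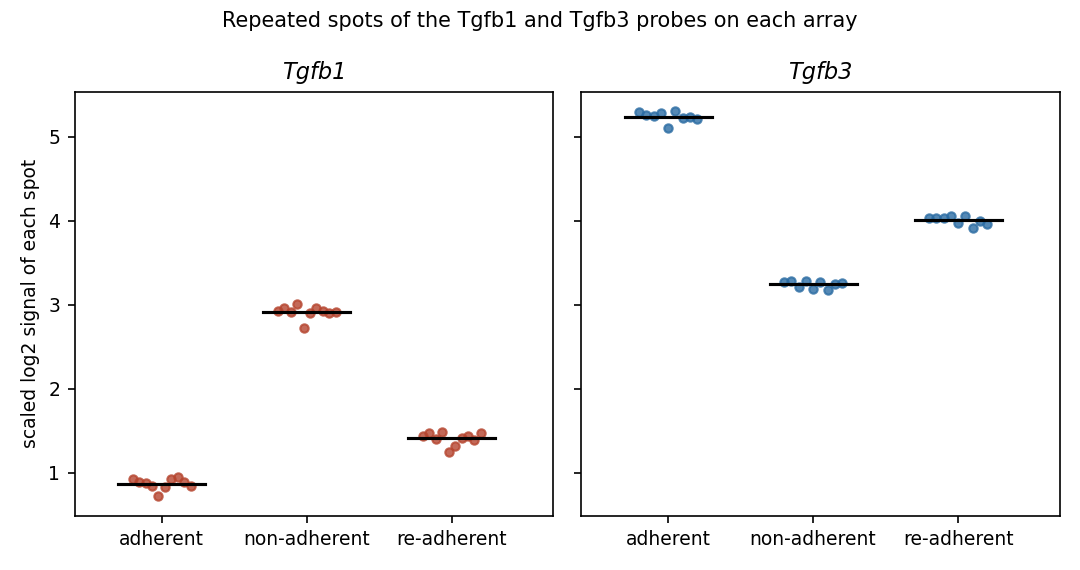
Scaled log2 signal (log2 processed signal minus the array's 75th percentile) of each printed copy of the Tgfb1 probe (left, 10 spots) and the Tgfb3 probe (right, 9 spots) on the 3 arrays; horizontal bars are means. The spots are copies on 1 array and not separate cultures. On the adherent array Tgfb1 is at its lowest and Tgfb3 at its highest, and the spots of the 3 arrays form separate bands in both panels. Heights in the left and right panels come from different probes and are not comparable.

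The balance of the ligand transcripts therefore shifted, and a ratio of 2 genes on the same array does not depend on any scaling by 1 constant per array. The ratio of Tgfb1 to Tgfb3 was 16.5-fold higher in Non than in Ad (log2 4.04 ± 0.29). It dropped 4.83-fold on re-adhesion (-2.27 ± 0.29) and ended 3.42-fold above the first adherent cells (1.77 ± 0.29). Against Tgfb2 the ratio of Tgfb1 was 14.5-fold higher in suspension (3.86 ± 0.29) and dropped 8.19-fold on re-adhesion (-3.03 ± 0.29). Tgfb2 and Tgfb3 kept nearly the same ratio into suspension (0.18 ± 0.29) and parted on re-adhesion (0.76 ± 0.29), when Tgfb2 recovered more of its signal.

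The latency proteins Ltbp1 and Ltbp2 were both lower in suspension but differed in their return. Ltbp1, which ties latent TGF-beta to fibronectin and fibrillin fibres, read 3327 units in Ad, 650 in Non and 2728 in Re. Its 5.48-fold loss in suspension (-2.45 ± 0.20) was the largest difference among the 10 genes, and its 5.40-fold gain on re-adhesion (2.43 ± 0.20) left -0.02 ± 0.20 against the first adherent cells. In suspension 3.70% of all genes were lower than Ltbp1, and on re-adhesion 4.20% were higher. At 4-fold, Ltbp1 and Smad7 were the 2 members lower in suspension, beside 5.34% of all genes, Tgfb1 was the 1 member higher, beside 7.61%, and Ltbp1 was the 1 member higher on re-adhesion, beside 5.7%.

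Ltbp2, which binds fibrillin but is not known to carry latent TGF-beta, did not return. It gave 63319 units in Ad, 20831 in Non and 12903 in Re. The loss in suspension was 3.25-fold (-1.70 ± 0.20), re-adhesion added -0.33 ± 0.20, and re-adherent cells stood 4.08-fold below the first adherent cells (-2.03 ± 0.20). Ltbp2 was the 1 member over 4-fold lower in that pair, beside 1.29% of all genes, and 1.18% of all genes were lower than it. With median scaling its difference fell short of 4-fold (-1.94). The ratio of Ltbp1 to Ltbp2 was 4.02-fold higher in re-adherent than in first adherent cells (2.01 ± 0.29), with the gain falling on re-adhesion (2.76 ± 0.29). Relative to Ltbp1, Tgfb1 was 22.6-fold higher in suspension (4.50 ± 0.29) and 15.3-fold lower again on re-adhesion (-3.94 ± 0.29).

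The signalling receptors were higher in suspension and the accessory receptor was not. Tgfbr1, the type I receptor kinase, read 1808, 5026 and 2100 units in Ad, Non and Re. It was 2.60-fold higher in suspension (1.38 ± 0.20) and then -0.89 ± 0.20 on re-adhesion, short of 2-fold. That step was past the threshold with the scaling of the deposited matrix (-1.17), narrowly with quantile scaling, with spike-in scaling (-1.03) and with no scaling (-1.26). A dimmer second probe of Tgfbr1 gave 1.19 ± 0.22, -0.90 ± 0.22 and 0.28 ± 0.24 for the 3 pairs.

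Tgfbr2, the type II receptor that binds the ligand first, rose with Tgfbr1. It gave 5119 units in Ad, 18916 in Non and 5529 in Re, which was 3.45-fold higher in suspension (1.79 ± 0.20) and 2.66-fold lower after re-adhesion (-1.41 ± 0.20). The second probe gave 270, 669 and 290 units and smaller differences, 1.21 ± 0.21 and -0.84 ± 0.21, so the direction was shared by both probes but the second probe did not pass 2-fold on re-adhesion. By their brightest probes Tgfbr1 and Tgfbr2 changed their ratio by -0.41 ± 0.29 in suspension and 0.52 ± 0.29 on re-adhesion. The second probes of Tgfbr1 and Tgfbr2 gave nearly equal differences in suspension (1.19 and 1.21) and on re-adhesion (-0.90 and -0.84). A shift between these receptors was thus not shared by both sets of probes.

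Tgfbr3, or betaglycan, presents ligand to the type II receptor and, when shed, can hold ligand away from it. Its probe read 1939, 1622 and 738 units, so the signal was lower at each step without passing 2-fold (-0.36 ± 0.20 and -0.77 ± 0.20). Both steps together left re-adherent cells 2.18-fold below the first adherent cells (-1.13 ± 0.20), and 3.94% of all genes were lower than that. With the scaling of the deposited matrix the step on re-adhesion was -1.05, past the threshold. The ratio of Tgfbr2 to Tgfbr3 was 4.42-fold higher in suspension (2.14 ± 0.29) and remained 1.50 ± 0.29 higher on the log2 scale in re-adherent cells, and that of Tgfbr1 to Tgfbr3 was 1.73 ± 0.29 and 1.61 ± 0.29 higher. These ratios rest on the brightest probe of each gene, and the second Tgfbr2 probe rose less in suspension (1.21 against 1.79).

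Smad3 and Smad7, the transducer and the inhibitor, also differed. Smad3 gave 5493, 4371 and 5439 units and stayed within 2-fold in every pair, at -0.43 ± 0.20, 0.68 ± 0.20 and 0.25 ± 0.20. A dim second probe for Smad3 gave -0.74 ± 0.23, 0.55 ± 0.25 and -0.19 ± 0.24, which has the opposite sign to the first probe in re-adherent against adherent cells. Smad7 read 3462 units in Ad, 820 in Non and 2343 in Re. It was 4.52-fold lower in suspension (-2.18 ± 0.20), 3.68-fold higher on re-adhesion (1.88 ± 0.20) and -0.30 ± 0.20 from its first level at the end, and 4.59% of all genes were lower than Smad7 in suspension. The ratio of Smad3 to Smad7 was 3.36-fold higher in suspension (1.75 ± 0.29) and dropped 2.30-fold on re-adhesion (-1.20 ± 0.29).

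**Figure D3:**
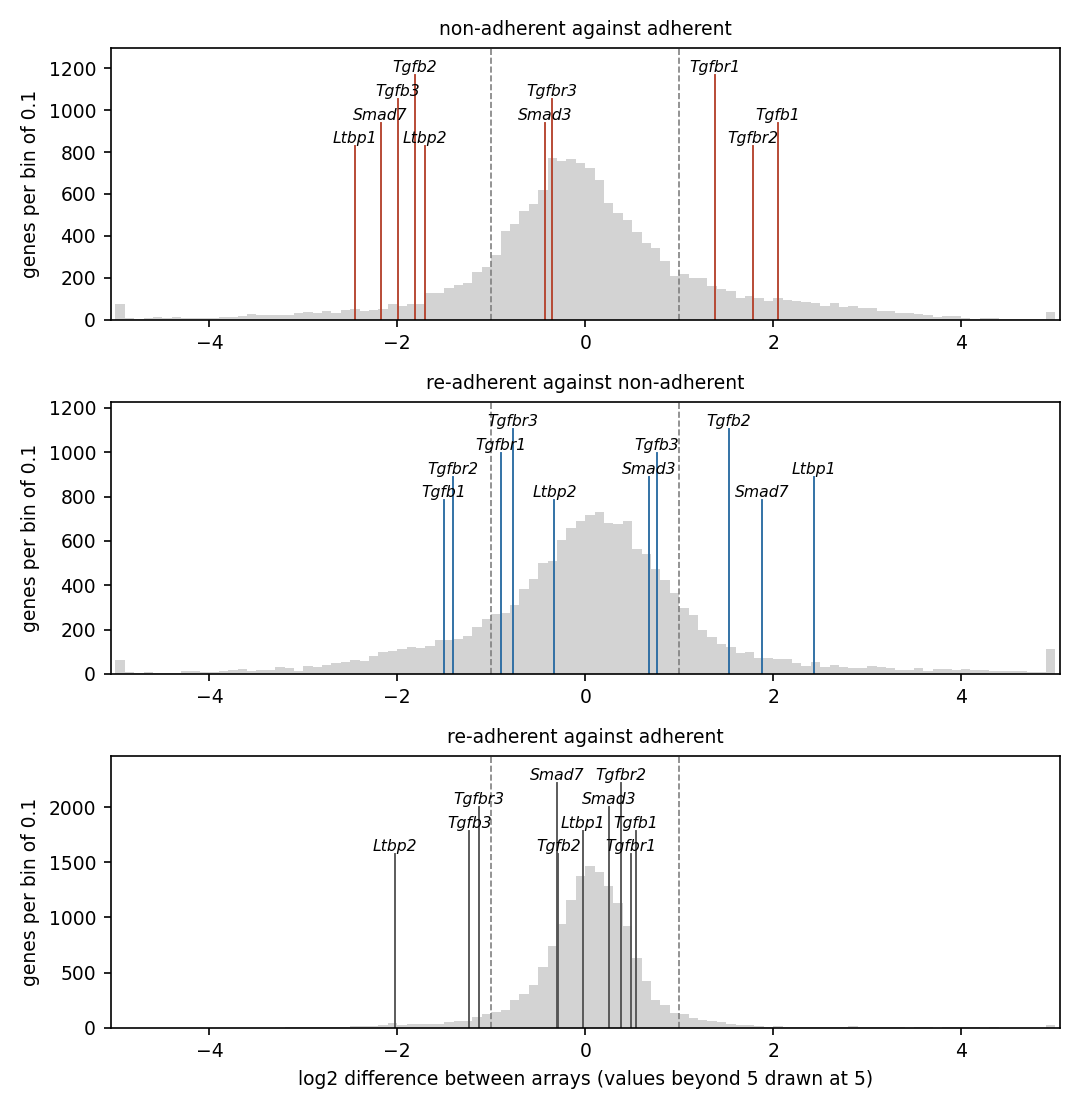
Distribution of log2 differences over all 15393 tested genes (grey, genes per bin of 0.1) with the members drawn as labelled lines, in the 3 pairs of arrays from top to bottom; line heights serve the labels only, dashed lines mark 2-fold, and genes beyond 5 are drawn in the last bin. In suspension 8 of the 10 lines lie past 2-fold, on both sides. In re-adherent against adherent cells, where the grey distribution is narrowest, Ltbp2, Tgfb3 and Tgfbr3 lie past 2-fold on the lower side.

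Of 88 further genes of the pathway, in 4 lists by role, 85 were tested. The lists were chosen with earlier results of these data known, so their shares beside all genes describe the lists and test nothing. In suspension 30 were over 2-fold lower (35.3%, beside 14.7% of all tested genes) and 15 higher (17.6%, beside 17.2%). The median was -0.35 against -0.07 over all tested genes. On re-adhesion 16 were lower (18.8%, beside 16.3%) and 33 higher (38.8%, beside 15.6%), with a median of 0.43 against 0.08. In re-adherent against adherent cells 8 were lower (9.41%, beside 4.89%) and 4 higher (4.71%, beside 4.84%), with a median of -0.01 against 0.06. The higher counts in suspension and in the last pair were thus near the share of all genes. The same shares of all genes are the background for the counts of each list below. The lists did not move alike.

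The largest differences lay among genes known to rise when fibroblasts are given TGF-beta. In suspension 18 of the 31 tested were over 2-fold lower and 6 higher, with a median of -1.31, and on re-adhesion 5 were lower and 16 higher, with a median of 1.15. Acta2, the smooth muscle actin of myofibroblasts, was at -6.62 ± 0.20 in suspension and 6.55 ± 0.20 on re-adhesion, and Ccn2, a matricellular growth factor, at -4.10 and 4.35. Edn1 (endothelin-1) was at -6.42 ± 0.31 and 5.07 ± 0.31. Its 22 units in Non lay near the lowest signal well above background there (14 units), so the size of its loss is uncertain. Not every gene of this list moved with them. The 5 genes over 2-fold lower on re-adhesion were Comp, Tgfbi, Junb, Angptl4 and Bhlhe40, from -4.04 to -1.02, and all 5 were over 2-fold higher in suspension. Tgfbi, a matrix protein named for its induction by TGF-beta, was at 2.52 in suspension and -1.39 on re-adhesion, the direction of Tgfb1, and Pmepa1, a Smad3 target that restrains the pathway, was at 0.27 and -0.03. Against the first adherent cells Il11, Comp, Cthrc1 and Edn1 were over 2-fold lower and Tgfbi, Cdkn1a and Eln higher, between -1.69 and 1.60. These genes other than Tgfbi and Edn1, and the 5 above other than Tgfbi, were named after their values were seen. Acta2, Col1a1, Postn and Tagln of this list also stand in the list of fibroblast markers below.

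Genes of latency, storage and release went both ways. In suspension 4 of 22 were over 2-fold lower and 7 higher, with a median of 0.14, but with spike-in scaling 6 were lower and 4 higher. On re-adhesion 9 were lower and 4 higher, with a median of -0.72. Beside Ltbp1, its relatives Ltbp3 and Ltbp4 gave 0.59 and 1.48 in suspension and -1.01 and -2.16 on re-adhesion, the opposite of Ltbp1. The fibrillins that anchor these proteins, Fbn1 and Fbn2, were at -1.29 and -1.67 in suspension. On re-adhesion Fbn1 gave 0.77 and Fbn2 -1.43, so that Fbn2, like Ltbp2, was low at the end, at -3.10 against the first adherent cells. Lrrc32, which holds latent TGF-beta on the cell surface, was at -2.40 and 1.66, and Nrros, its counterpart on myeloid cells, at 3.29 and -2.51. Thbs1, the thrombospondin that can free the ligand, was at -4.07 and 3.92, and Mmp2, a matrix protease that can do so, at 2.49 and -2.67. The integrin subunits whose pairs bind latent TGF-beta went different ways. Itgav gave -0.86 and 1.27 and Itgb8 -0.95 and 3.30, whereas Itgb3 gave 1.24 and -2.19 and Itgb5 -0.05 and 0.29. Itgb8 was the 1 gene of the list over 2-fold higher in re-adherent than in first adherent cells, at 2.35 ± 0.23. It was dim, at 56, 31 and 238 units in Ad, Non and Re, where the lowest signals well above background were 17, 14 and 18 units. By measured values 4 genes were over 2-fold lower in that pair, namely Fbn2, the proteoglycan Dcn (-1.51), Mmp9 and Aspn, the last 3 named after their values were seen. Mmp9 and Aspn were not well above background in Re and have bounds only, at least 1.62-fold and 3.07-fold lower, so that Mmp9 was not shown to pass 2-fold. Furin, which cleaves the propeptide, stayed at -0.11 and 0.14.

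Co-receptors and regulators of the receptors had a median of -0.77 in suspension and 1.09 on re-adhesion. In suspension 5 of 18 were over 2-fold lower and 2 higher, on re-adhesion 2 were lower and 10 higher, and in re-adherent against adherent cells none of the 18 passed 2-fold in either direction. With spike-in scaling 9 were lower in suspension, with no scaling 6 were higher on re-adhesion, and with normexp background correction 1 was lower there. Eng (endoglin), a co-receptor related to Tgfbr3, was at -1.39 and 1.72, and Acvrl1, a type I receptor that works with it, at -0.69 and 1.55. Vasn (vasorin), which binds TGF-beta, was at -1.46 and 1.12. Cav1, which takes receptors into caveolae, was at -3.18 and 3.67, and Cd109, a co-receptor that dampens signalling, at -1.70 and 1.63. Dab2, an adaptor between receptors and Smads, went the other way at 2.26 and -1.57, as did Tgfbrap1, which binds the receptors, at 1.48 and -1.13. Beside Smad7, the ubiquitin ligases Smurf1 and Smurf2 that it brings to the receptor were at -1.22 and -0.89 in suspension and 1.63 and 1.34 on re-adhesion.

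Among 14 Smads and nuclear partners, 3 were over 2-fold lower in suspension and 0 higher, and 0 were lower and 3 higher on re-adhesion, of which 1 was left with normexp background correction. Those 3 were Tgif2, a repressor that joins Smads on DNA (-2.28 and 2.32), Smad9, a transducer of bone morphogenetic proteins (-2.22 and 1.73), and Smad6, the inhibitor related to Smad7 (-1.55 and 1.04). Tgif2 and Smad9 read only 28 and 36 units in Non, where the lowest signal well above background was 14 units. The sizes of their differences are therefore uncertain. The partners of Smad3 moved less, with Smad2 at -0.14 and 0.26 and Smad4 at -0.51 and 0.60. Skil, a repressor of Smad3, was at -0.15 and -0.22.

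**Figure D4:**
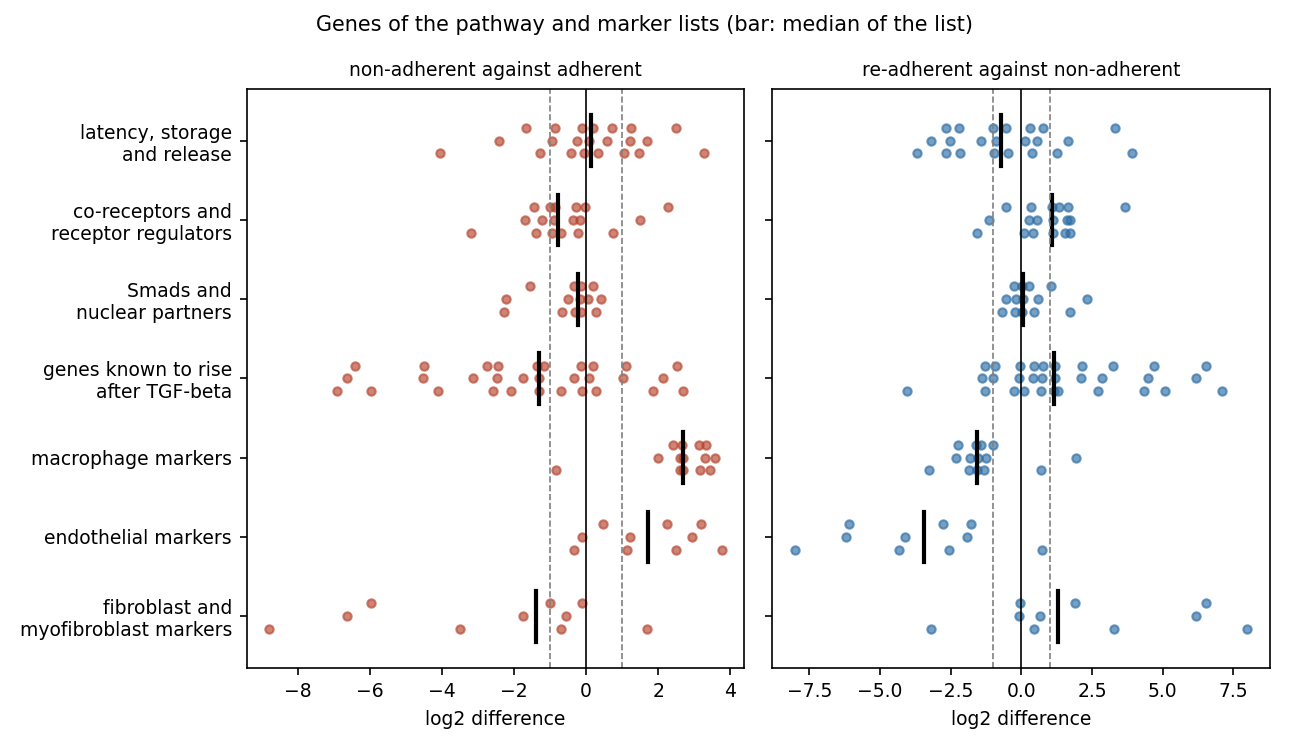
Log2 differences of the tested genes of the 4 pathway lists and of 3 cell type marker lists (rows), in suspension against adherence (left) and re-adhesion against suspension (right); each point is a gene, black bars are list medians, and dashed lines mark 2-fold; genes below background on an array are drawn at their measured value. The genes known to rise after TGF-beta have a median of -1.31 on the left and 1.15 on the right, whereas the macrophage markers have medians of 2.69 and -1.56.

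Cell type markers moved with these results. All 10 fibroblast and myofibroblast markers were well above background on every array, and their median was -1.38 in suspension and 1.28 on re-adhesion, with 6 over 2-fold lower and 1 higher (Dcn, 1.69) in suspension. Their summed signal was 1477030, 490487 and 1123560 units in Ad, Non and Re, and Col1a1, the collagen chain, was at -0.70 in suspension. Of 14 macrophage markers 13 were over 2-fold higher in suspension and 0 lower, with differences from -0.84 to 3.58 and a median of 2.69, and on re-adhesion 12 were lower and 1 higher (Cx3cr1, 1.95), with a median of -1.56. Dcn and Cx3cr1 were named after their values were seen. The summed macrophage signal was 143486, 950324 and 249607 units, and all 14 were well above background on all 3 arrays. Ptprc, which encodes the CD45 used for the depletion, gave 355, 2441 and 532 units, 2.68 in suspension and -1.83 on re-adhesion. Of 10 endothelial markers 7 were over 2-fold higher in suspension and 9 lower on re-adhesion, with medians of 1.73 and -3.43, and their summed signal was 15494, 27097 and 12061 units. Pecam1 was at 1.21 and -1.93 and Cdh5 at 2.94 and -6.12.

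Tgfb1, Tgfbr1, Tgfbr2 and Nrros shared the direction of the macrophage and endothelial marker medians in both steps. So did Ltbp4, Mmp2, Itgb3, Dab2 and Tgfbi, and also Dcn of the fibroblast markers (1.69 and -3.20). Tgfb2, Tgfb3, Ltbp1 and Smad7 shared the direction of the fibroblast marker median. Tgfbr3 and Ltbp2, the members that were lower at each step, had the direction of the fibroblast markers in suspension and of the macrophage and endothelial markers on re-adhesion. In re-adherent against adherent cells, where Tgfb3, Tgfbr3 and Ltbp2 were lower, the median of the macrophage markers was 1.15 and that of the endothelial markers -1.99, with 7 of 10 endothelial markers well above background in Re. The part of these cell types in the differences of the members was not tested.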

How the data were processed

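RNA of adherent, non-adherent and re-adherent cells (1 array each) was measured on 1-colour Agilent mouse arrays, which shared 1 slide and 1 scan per the file headers. The authors' scanner files hold intensity as processed signal from Agilent Feature Extraction 10.10.1.1, background-subtracted and detrended, with the software's error and flags per spot. The deposited matrix of the authors holds intensity equal to that signal times 1.52, 1.52 and 1.62 per array; it served as an alternative.

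Of 62976 spots, 59305 were not controls. Spots marked as outliers on any array were left out on all arrays. The array's own 75th percentile was subtracted from the log2 signal, copies of a probe were averaged, and a gene was represented by its brightest probe among those well above background on at least 1 array. Probes were named through RefSeq accessions without version in a table of GRCm38.p6 (21465 of 37881 transcript names matched), and since the array design is older, gene coordinates are not given. Promoter windows came from RefSeq and the same assembly.

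With 1 array per group no test was run. A call is a difference over 2-fold or, as an alternative, over 4-fold. The number of arrays sets the precision, and the labels do not say whether RNA was labelled in 1 batch. The members, 4 pathway lists and 5 marker lists (macrophage, endothelial, cardiomyocyte, mural, fibroblast) were chosen with earlier results of these data known. Named genes were the members, the 3 genes of each pathway list with the largest difference in suspension among those well above background on all arrays, list genes whose role stands beside a member, for each member over 4-fold changed in suspension its 3 nearest profiles, and of the markers Ptprc, Cd68, Pecam1, Cdh5, Col1a1 and Acta2. Some genes that this rule names are not reported here. Itgb6 and Bambi did not pass the filter, and no probe was matched to Tgfb1i1 or Cd68.

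Alternatives were normexp background correction (limma 3.58.1 in R 4.3.3, offset 50, on median spot and background signals, since mean spot signals were not used here), the authors' scaling, quantile, median, spike-in and no scaling, filters on dim probes, a floor for low signals, the mean over probes, leaving out bright patches of spots, and, added after seeing the data, differences relative to the median of all genes. The remaining steps used Python 3.11.15, numpy 2.4.6, pandas 2.3.3 and matplotlib 3.10.9, and the code was tested on simulated data.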

Additional observations from a re-analysis of the deposited data

How the results depend on the processing

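The 16 called differences among the 30 of the members kept their sign and stayed past 2-fold under all 12 alternatives. Some of the 12 could not move a member. All members were well above background on every array, and 0 of their spots lay in bright patches. The filters on dim probes, the floor and leaving out patches therefore returned the main values. The mean over probes could move only members with several probes. There were 3 uncalled differences that changed sign, all in re-adherent against adherent cells: Tgfbr2 (0.38, and -0.06 with spike-in scaling), Ltbp1 (-0.02, and 0.07 with median scaling) and Smad3 (0.25, and -0.18 with spike-in scaling). On re-adhesion Tgfbr1 and Tgfbr3 passed 2-fold with no scaling (-1.26 and -1.14) and with the authors' scaling, so that 4 members in place of 2 were lower, and Tgfbr1 also with quantile scaling, narrowly, and with spike-in scaling (-1.03), with 3 members lower. At 4-fold 2 members were lower and 1 higher in suspension, 0 lower and 1 higher on re-adhesion, and 1 lower in re-adherent against adherent cells. Not all of these 4-fold calls held. In suspension Tgfb1 fell short with normexp (1.98) and spike-in scaling (1.74). With spike-in scaling Tgfb2 (-2.11), Tgfb3 (-2.30) and Ltbp2 (-2.004) also passed on the lower side. In the last pair Ltbp2 fell short with median scaling (-1.94). The pathway genes past 4-fold were 18 lower and 6 higher, 8 lower and 16 higher, and 3 lower and 1 higher in the same order. In the last pair the 8 lower pathway genes became 5 with normexp and 15 with spike-in scaling, and the 4 higher became 2 with the authors' scaling, quantile, spike-in and no scaling. The remaining counts over the members and over all pathway genes stayed within 1.5 times. Of the single lists, in suspension co-receptors lower went from 5 to 9 and latency genes higher from 7 to 4 with spike-in scaling. On re-adhesion co-receptors higher went from 10 to 6 with no scaling and lower from 2 to 1 with normexp, and Smads and partners higher from 3 to 1 with normexp and lower from 0 to 1 with no scaling. In the last pair latency genes lower went from 4 to 2 with normexp or when all arrays had to be well above background, to 7 with no scaling and to 8 with spike-in scaling, Smads and partners lower from 0 to 1 with spike-in scaling, and genes known to rise after TGF-beta higher from 3 to 1 with the authors' scaling, quantile, spike-in and no scaling. The causes were not tested. The median of all genes moved by -0.30, -0.13 and -0.43 with spike-in scaling, by -0.27 and -0.18 on re-adhesion and in the last pair with the authors' scaling, and by -0.36 and -0.27 with no scaling. No array could be left out, and no paired analysis was possible because there was a single array per group. Dim second probes of Tgfbr1 and Smad3 carried larger errors. That of Tgfbr2 had nearly the same error in suspension (0.205 against 0.204) but smaller differences, 1.21 against 1.79 in suspension and -0.84 against -1.41 on re-adhesion.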

Other observations

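Profiles most like those of the members over 4-fold changed in suspension were looked up among 13474 genes well above background on all 3 arrays, by distance over the 3 scaled log2 levels after their mean was removed. With 3 arrays the measure rests on few values. Nearest to Tgfb1 were Tbc1d2 (distance 0.02), Pdxk (0.02) and Blvra (0.03). Slc7a5, an amino acid transporter subunit, Cldn15, a claudin, and Sync lay nearest to Ltbp1, at 0.02 each. Close to Smad7 lay Denn2b (0.04) and Plpp1 (0.06).

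Of the marker lists not described above, 4 of 8 cardiomyocyte markers were tested, with a median of 0.97 in suspension, and the 6 mural markers had a median of 0.70.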
